A study of Homo sapiens with 18 samples.

Results

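The 8 genes described here are components and regulators of the complement system: C3, CFB, C1R, C1S, SERPING1, CD46, CD55 and CD59. They are 8 of the 17017 gene symbols in the deposited table and were found there by symbol. C3 was chosen by its RNA and footprint values, already seen to be high after fibrillarin knockdown in these libraries, so its levels against the control are given as a description, with no test. The question asked of the other 7 genes was whether they moved with C3.

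The cells were MDA-MB-231, an established triple-negative breast carcinoma line. All groups carried a lentiviral vector and were held in puromycin at 1 µg/ml for 96 h. A virus time of 48 h is listed for all groups. SC is read here as the scramble hairpin, and SH2 and SH3 as the hairpins against fibrillarin (FBL), the methyltransferase that modifies riboses of ribosomal RNA in the nucleolus. Which knockdown of the protocols SH2 or SH3 stands for is not given. Cells were treated with cycloheximide at 100 µg/ml for 5 min before lysis. Each lysate gave a cytoplasmic RNA library (input, IN) and a library of ribosome-protected footprints (RPF), with 3 replicates of each kind per treatment and 18 libraries in all. The labels do not say whether replicates were separate cultures or transductions, so the p-values measure only the spread between these samples.

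Complement is a cascade of plasma and cell-surface proteins in which proteases of the classical, lectin and alternative pathways cut C3. The fragment C3b then tags surfaces and, with factor B, forms the enzyme that cuts more C3. Cells are shielded from their own complement by membrane regulators. The liver makes most plasma complement, but epithelial and tumour cells also transcribe several components, and C3 and factor B are acute phase genes that inflammatory cytokines induce in many cell types.

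RNA libraries held 23469830 to 27629488 counts and footprint libraries 1662705 to 6098648, with the smallest total in SH3 replicate 1. FBL RNA fell from 388 ± 36.4 CPM (library-scaled read counts, with TMM factors) for SC to 5.67 ± 5.09 for SH2 and 3.49 ± 0.611 for SH3 (SD, n = 3 per group). The 6 genes listed as high in MDA-MB-231, vimentin (VIM) among them, were all detected. In the hepatocyte list, 3 of 5 genes present were at 3 counts or fewer in every RNA library. Summed RNA of that list was 0.618 to 1.53 CPM in SC, 0.213 to 0.745 in SH2 and 0.280 to 0.461 in SH3. Summed RNA of the leukocyte and macrophage list was 6.37 to 8.36 CPM in SC, 7.07 to 8.16 in SH2 and 5.44 to 6.28 in SH3. CD14 and CSF1R had the highest RNA of the list, at 2.61 ± 0.611 and 2.81 ± 0.608 CPM for SC (SD, n = 3). AIF1 and CD163 were at or near 0. Within that list PTPRC was called lower in both hairpins (1.35 ± 0.140 CPM for SC, 0.332 ± 0.144 for SH2, 0.242 ± 0.0838 for SH3; SD, n = 3), and LYZ higher in SH2 (0.325 ± 0.114 CPM for SC, 1.07 ± 0.208 for SH2). PTPRC passed the filter on low counts mainly through SC and LYZ mainly through SH2, where each was high. Neither call is support for a difference. The part of PTPRC and LYZ in the results was not tested. These are bulk samples, in which a change in the share of cells and a change in RNA per cell cannot be told apart.

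Of the 7 genes other than C3, CFB and C1R were called higher in RNA in both hairpins, where 19.6% of all genes tested were. The regulators among the 7 did not rise as a group. Factor B RNA was 2.62-fold higher in SH2 and 2.28-fold higher in SH3. C1R RNA was 1.45-fold and 1.68-fold higher, and its SH2 call was lost in 6 of 15 alternative fits. C1S, the partner protease of C1R, did not pass the test in either hairpin. SERPING1, the inhibitor of both proteases, had 12 to 18 counts per library in SC and was near 0 in both hairpins. It entered the test only through SC, so its lower call is no support for a fall. The membrane regulators CD46, CD55 and CD59 each differed between the 2 hairpins, CD46 and CD59 in RNA and footprints and CD55 in footprints.

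**Figure D1:**
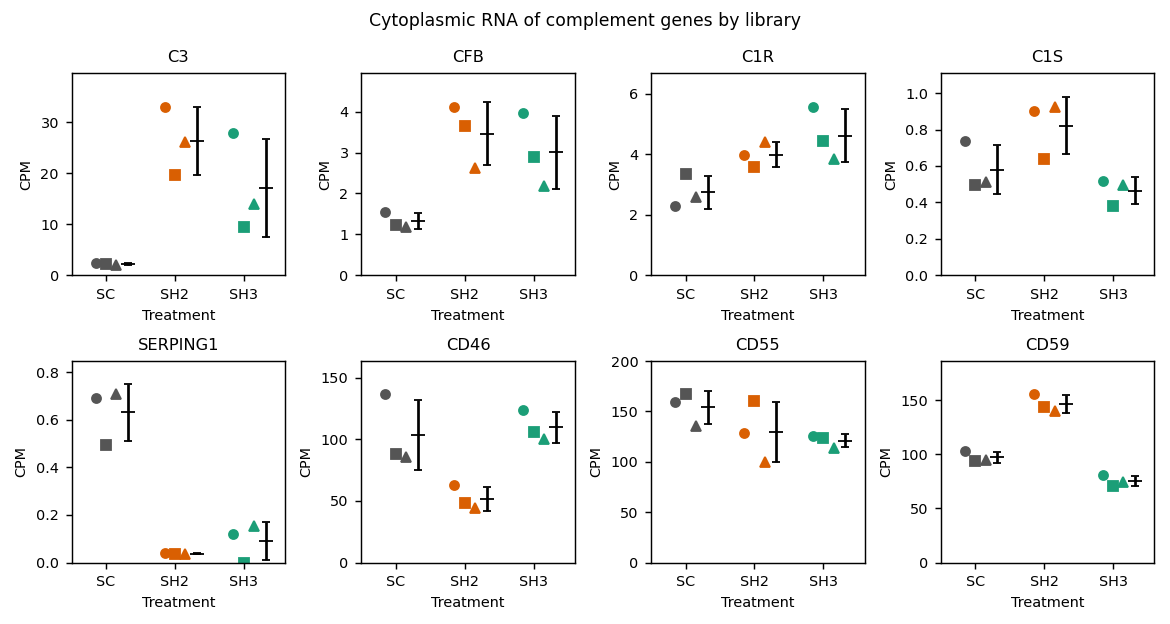
Cytoplasmic RNA of the 8 complement genes, in CPM on a linear axis from 0, for SC, SH2 and SH3. Points are libraries (circle, square and triangle for replicates 1, 2 and 3) and black bars the mean ± SD (n = 3). C3 and CFB were above SC in all 6 hairpin libraries, SERPING1 was below it in all 6, and CD59 was above SC in SH2 and below it in SH3.

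C3 is the central protein of the cascade, on which all activation pathways converge. Its RNA stood at 2.41, 2.22 and 1.93 CPM in SC replicates 1, 2 and 3, at 33.0, 19.6 and 26.2 CPM in SH2, and at 28.0, 9.44 and 14.0 CPM in SH3. All hairpin libraries were above all SC libraries, and SH3 replicate 1 was far above the other SH3 libraries. Behind these levels lie 49 to 59 counts per library in SC, 522 to 842 in SH2 and 225 to 699 in SH3. The ratio of means against SC was 12.0 in SH2 and 7.83 in SH3. The fitted log2 change was 3.59 in SH2 and 2.97 in SH3, the latter 2.38 without SH3 replicate 1. These placed C3 at rank 11 in SH2 and 21 in SH3 from the highest of 12710 genes tested.

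C3 footprints stood at 2.59, 3.36 and 1.59 CPM in SC, at 36.2, 43.5 and 43.3 CPM in SH2, and at 31.5, 9.22 and 22.4 CPM in SH3. SH2 and SH3 again lay wholly above SC, on 8 to 16 footprint counts per library in SC, 98 to 187 in SH2 and 27 to 64 in SH3. The ratio of means was 16.3 in SH2 and 8.37 in SH3. Of 10345 genes tested in footprints, C3 ranked 2 in SH2 and 5 in SH3. The ratio of footprint CPM to RNA CPM within a replicate was 1.14 ± 0.346 for SC, 1.65 ± 0.559 for SH2 and 1.24 ± 0.325 for SH3 (SD, n = 3 per group), and these ranges overlapped.

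Whether the hairpins differed from each other in C3 is a contrast that did not choose the gene. In RNA, SH2 exceeded SH3 by 0.62 on the log2 scale (SE 0.29, 95% interval -0.0075 to 1.24), which did not pass the test (edgeR quasi-likelihood, Benjamini-Hochberg adjusted p 0.108). Without SH3 replicate 1 this RNA difference was 1.19 and passed (adjusted p 0.00135). In footprints SH2 exceeded SH3 by 1.02 (SE 0.30, edgeR adjusted p 0.0201), and the 3 SH2 libraries were all above the 3 SH3 libraries. The footprint call was lost when SH2 replicate 2, SH2 replicate 3 or SH3 replicate 2 was left out and when footprint libraries were thinned to equal totals, with the lowest difference at 0.63 (adjusted p 0.0915) without SH3 replicate 2.

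CFB encodes factor B, the serine protease that binds C3b to form the alternative pathway C3 convertase. CFB RNA stood at 1.55, 1.24 and 1.18 CPM in SC, at 4.12, 3.65 and 2.63 CPM in SH2, and at 3.96, 2.89 and 2.18 CPM in SH3. All hairpin libraries were above all SC libraries, and replicate 1 was the highest in each treatment. The log2 rise was 1.39 in SH2 (SE 0.27, edgeR adjusted p 0.000461) and SH3 gave 1.18 (SE 0.27, edgeR adjusted p 0.00215). CFB passed the test in both hairpins under all 15 alternatives tried for RNA. SH2 and SH3 differed in CFB RNA by 0.20 (95% interval -0.32 to 0.72, edgeR adjusted p 0.545), so a difference of the size seen for C3 lies inside that interval. CFB footprints were too few to test, with 0, 1 and 0 counts in SC, 1, 5 and 4 in SH2, and 1, 2 and 1 in SH3. Summed over replicates and scaled by library size, SH2 exceeded SC by a ratio of 14.1 (95% exact counting interval 2.00 to 610.0, for 10 counts against 1). The interval covers counting error only. CFB was called higher in SH2 footprints when the filter on low counts was dropped, but on these few counts the call is no support for a rise. The authors' deposited DESeq2 values give CFB footprints an adjusted p of 0.106 in SH2 and 0.385 in SH3.

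The sequence before the CFB start site is shown because CFB rose with C3 in both hairpins and is an acute phase gene. A set of 4 motifs was looked for on both strands. The kappaB-like motif (GGGANNNNCC) is bound by NF-kappaB proteins and the ISRE-like motif (GAAANNGAAA) by interferon regulatory factors. The GAS motif (TTCNNNGAA) is bound by STAT dimers, and the last was a C/EBP-like motif (TTGNNNAA). They were chosen with the results known. The 250 bases upstream of a start site in the RefSeq promoter table (GRCh38.p14) are given 5′ to 3′ on the gene's strand, with motif matches in capitals, for CFB (chr6:31945845-31946094, plus strand) and for both listed start sites of C1R (chr12:7092446-7092695 and chr12:7091894-7092143, minus strand), the other gene that rose in both hairpins:
CFB: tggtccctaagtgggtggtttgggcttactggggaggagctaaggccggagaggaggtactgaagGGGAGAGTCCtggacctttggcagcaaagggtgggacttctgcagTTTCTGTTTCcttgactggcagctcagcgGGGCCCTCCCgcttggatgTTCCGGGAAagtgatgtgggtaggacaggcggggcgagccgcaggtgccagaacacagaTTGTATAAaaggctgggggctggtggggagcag
C1R start site 1: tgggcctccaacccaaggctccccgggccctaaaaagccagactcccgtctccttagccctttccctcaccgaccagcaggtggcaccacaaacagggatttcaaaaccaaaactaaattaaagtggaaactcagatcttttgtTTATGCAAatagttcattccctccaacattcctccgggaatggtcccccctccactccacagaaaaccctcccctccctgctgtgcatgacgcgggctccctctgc
C1R start site 2: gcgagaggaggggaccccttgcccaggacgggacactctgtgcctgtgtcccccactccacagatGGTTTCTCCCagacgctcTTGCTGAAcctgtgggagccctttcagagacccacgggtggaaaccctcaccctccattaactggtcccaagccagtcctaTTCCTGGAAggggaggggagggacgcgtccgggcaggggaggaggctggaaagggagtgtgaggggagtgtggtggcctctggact

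The CFB stretch held 2 kappaB-like matches and 1 match of each other motif, with no overlap between them. Of 35116 promoter entries of the same length, 22.57% held the kappaB-like motif, 3.021% the ISRE-like motif, 6.567% the GAS motif and 30.18% the C/EBP-like motif. All 4 were held by 2 entries, that of CFB among them. The motifs were chosen with the results known, so this count is a description only. C1R start site 1 held only a C/EBP-like match, and C1R start site 2 held 1 kappaB-like, 1 GAS and 1 C/EBP-like match. The entries for CD46 and CD55 held none of these letters, 2 of the 4 start sites of CD59 held a GAS match and another held 2 C/EBP-like matches. The table had entries for 5 of the 8 genes, and C3, C1S and SERPING1 were not among them. A match in these windows is a string of letters and not a measured binding site.

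C1R and C1S are the proteases of the C1 complex, which start the classical pathway after C1q binds, with C1r activating C1s. C1R RNA stood at 2.29, 3.34 and 2.60 CPM in SC, at 3.96, 3.57 and 4.41 CPM in SH2, and at 5.56, 4.45 and 3.83 CPM in SH3. The groups did not overlap with SC, but the lowest SH2 library was close to the highest SC library. The log2 rise was 0.54 in SH2 (SE 0.21, edgeR adjusted p 0.0347) and SH3 gave 0.75 (SE 0.21, edgeR adjusted p 0.00708). The SH2 call of C1R was lost in 6 of 15 alternatives, namely the fit of only the groups compared and the fits without SC replicate 1, SC replicate 3, SH2 replicate 1, SH2 replicate 3 or SH3 replicate 2, with adjusted p up to 0.134. The SH3 call was lost without SH3 replicate 1 (adjusted p 0.0563).

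C1R footprints stood at 2.75, 5.04 and 4.60 CPM in SC, at 8.87, 5.58 and 4.52 CPM in SH2, and at 5.26, 8.54 and 5.95 CPM in SH3. SH2 overlapped SC while SH3 lay just above it. The C1R footprint change was 0.65 in SH2 (SE 0.35, edgeR adjusted p 0.144), and SH3 gave 0.76 (SE 0.36, edgeR adjusted p 0.112). Both were close in size to the RNA changes and did not pass the test.

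C1S RNA was near the limit of what these libraries resolve, at 0.735, 0.494 and 0.511 CPM in SC, 0.902, 0.640 and 0.924 CPM in SH2, and 0.520, 0.377 and 0.498 CPM in SH3. Both hairpins overlapped SC. The log2 changes of C1S were 0.50 (95% interval -0.16 to 1.17, edgeR adjusted p 0.175) in SH2 and -0.31 (95% interval -1.04 to 0.42, edgeR adjusted p 0.465) in SH3. A change of the size of C1R's lies within the SH2 interval and outside the SH3 interval. Between the hairpins C1S differed by 0.81 (SE 0.32, edgeR adjusted p 0.0587), with all SH2 libraries above all SH3 libraries.

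SERPING1 encodes the C1 inhibitor, the serpin that blocks C1r, C1s and proteases of the contact system. Its RNA gave 17, 12 and 18 counts in the SC libraries, 1, 1 and 1 in SH2, and 3, 0 and 4 in SH3. All hairpin libraries were far below all SC libraries. Summed over replicates and scaled by library size, SERPING1 was 16.9-fold lower in SH2 (95% exact counting interval 5.45 to 85.1) and 6.78-fold lower in SH3 (3.05 to 17.8). It passed the RNA test as lower in SH2 (edgeR adjusted p 0.000122) and in SH3 (edgeR adjusted p 0.000936), but it entered the test only through its SC counts and so had to be high there. The intervals cover counting error only. SERPING1 footprints were 2, 0 and 4 counts in SC, 0, 1 and 1 in SH2, and 0, 0 and 0 in SH3, too few to test.

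CD46, CD55 and CD59 are the membrane regulators that protect a cell's own surface. CD46 (membrane cofactor protein) helps factor I cut C3b and C4b, CD55 (decay-accelerating factor) takes C3 convertases apart, and CD59 blocks assembly of the membrane attack complex. CD46 spans the membrane, whereas CD55 and CD59 hang from a glycosylphosphatidylinositol (GPI) anchor. Their counts are well above those of the secreted components, and all of them were tested in RNA and in footprints.

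CD46 RNA stood at 137, 88.3 and 85.9 CPM in SC, at 62.7, 48.6 and 44.1 CPM in SH2, and at 124, 106 and 100 CPM in SH3. All SH2 libraries were below all SC libraries, with replicate 1 the highest in every treatment, and SH3 overlapped SC. CD46 RNA fell by 1.00 on the log2 scale in SH2 (SE 0.17, edgeR adjusted p 0.000210), and differed from SC in SH3 by 0.086 (95% interval -0.28 to 0.45, edgeR adjusted p 0.695). The hairpins differed directly by -1.09 (SE 0.17, edgeR adjusted p 0.000294).

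CD46 footprints stood at 102, 176 and 159 CPM in SC, at 75.0, 91.6 and 62.6 CPM in SH2, and at 132, 126 and 111 CPM in SH3. SH2 was again wholly below SC. CD46 footprints fell by 0.92 in SH2 (SE 0.19, edgeR adjusted p 0.00123), close to the fall in RNA. They were at -0.24 in SH3 (SE 0.19, edgeR adjusted p 0.348), which passed without SC replicate 1 (-0.43, adjusted p 0.0433). The difference between hairpins in CD46 footprints was -0.68 (SE 0.20, edgeR adjusted p 0.0194), and it no longer passed without SH2 replicate 1, SH2 replicate 3, SH3 replicate 1 or SH3 replicate 2 (adjusted p up to 0.0964).

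**Figure D2:**
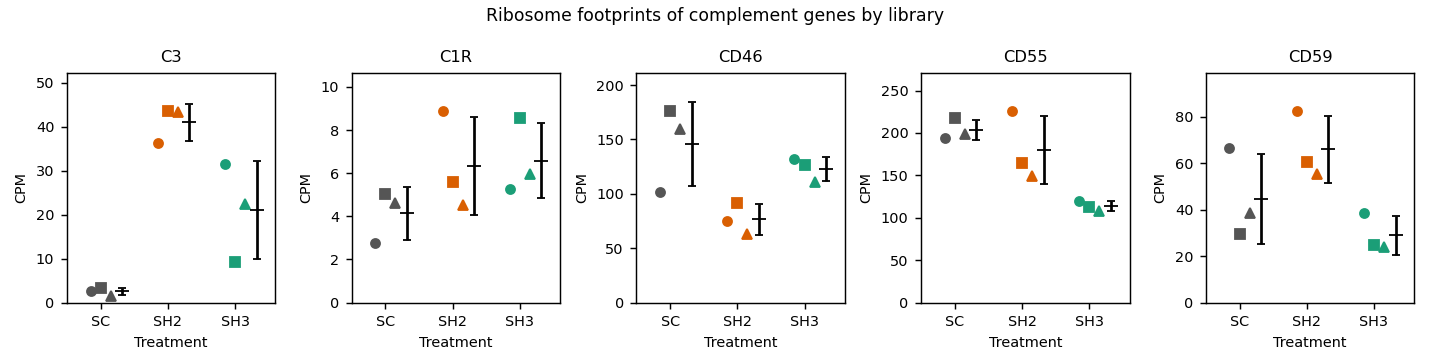
Ribosome footprints of the 5 complement genes with enough counts to test, in CPM on a linear axis from 0. Points are libraries (circle, square and triangle for replicates 1, 2 and 3) and black bars the mean ± SD (n = 3). C3 was above SC in all hairpin libraries, CD46 was below SC in the 3 SH2 libraries, and CD55 was below SC in the 3 SH3 libraries.

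CD55 was called lower in SH3 footprints and was not called in RNA, and the difference between its footprint and RNA changes did not pass the test. CD55 RNA stood at 159, 167 and 136 CPM in SC, at 128, 160 and 100 CPM in SH2, and at 126, 124 and 114 CPM in SH3. SH2 overlapped SC, and SH3 lay below it. The RNA change of CD55 was -0.25 in SH2 (SE 0.14, edgeR adjusted p 0.138), and SH3 gave -0.35 (SE 0.14, edgeR adjusted p 0.0515). With the replicate number as a block, by which SH2 and SC replicates paired, the SH2 change passed (-0.26, adjusted p 0.0305), as it did without SH2 replicate 2 (-0.44, adjusted p 0.00993). The SH3 change sat at the threshold: it passed in 9 of 15 alternatives, over a range of adjusted p from 0.00710 to 0.145, and the authors' deposited table gives it an adjusted p of 0.0286.

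CD55 footprints stood at 195, 217 and 198 CPM in SC, at 225, 165 and 150 CPM in SH2, and at 120, 113 and 108 CPM in SH3. The SH3 libraries were tightly grouped below all others. CD55 footprints fell by 0.84 in SH3 (SE 0.15, edgeR adjusted p 0.000678), to 56.0% of the SC mean, and were at -0.18 in SH2 (SE 0.15, edgeR adjusted p 0.361). SH2 exceeded SH3 by 0.66 (SE 0.16, edgeR adjusted p 0.00606). The ratio of footprint CPM to RNA CPM for CD55 was 1.33 ± 0.123 for SC, 1.43 ± 0.366 for SH2 and 0.940 ± 0.026 for SH3 (SD, n = 3 per group). Translational efficiency, the change in footprints beyond that in RNA, was -0.48 for CD55 in SH3 (SE 0.21), with an unadjusted p of 0.0364 and an edgeR adjusted p of 0.346, so it did not pass over all genes.

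CD59 RNA stood at 103, 93.5 and 94.9 CPM in SC, at 155, 143 and 140 CPM in SH2, and at 80.7, 71.0 and 74.1 CPM in SH3. No library of a treatment overlapped another treatment, and the order was SH2, SC, SH3 from the highest. CD59 RNA rose by 0.59 in SH2 (SE 0.091, edgeR adjusted p 7.26e-05) and fell by 0.37 in SH3 (SE 0.091, edgeR adjusted p 0.00383). The hairpins differed by 0.96 (SE 0.091, edgeR adjusted p 4.01e-06). Calls in opposite directions in the 2 hairpins were made for 1.92% of all genes tested in RNA, and CD59 was the 1 of the 8 genes among them.

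CD59 footprints stood at 66.5, 29.4 and 38.4 CPM in SC, at 82.4, 60.5 and 55.2 CPM in SH2, and at 38.5, 24.6 and 23.8 CPM in SH3. Replicate 1 was the highest in each treatment, and both hairpins overlapped SC. The footprint change of CD59 was 0.52 in SH2 (SE 0.25, edgeR adjusted p 0.107) and SH3 gave -0.69 (SE 0.28, edgeR adjusted p 0.0600). Both had the sign of the RNA change, and neither passed in these fits. With the replicate block both passed (0.59, adjusted p 0.00519 in SH2, and -0.62, adjusted p 0.00877 in SH3), as they did with no filter on low counts (adjusted p 0.0196 and 0.00401). The SH2 change also passed without SC replicate 1 (0.93, adjusted p 0.00247), and the SH3 change without SC replicate 2 (-0.89) or SH3 replicate 1 (-0.91). The hairpins differed from each other by 1.22 in CD59 footprints (SE 0.28, edgeR adjusted p 0.00493).

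**Figure D3:**
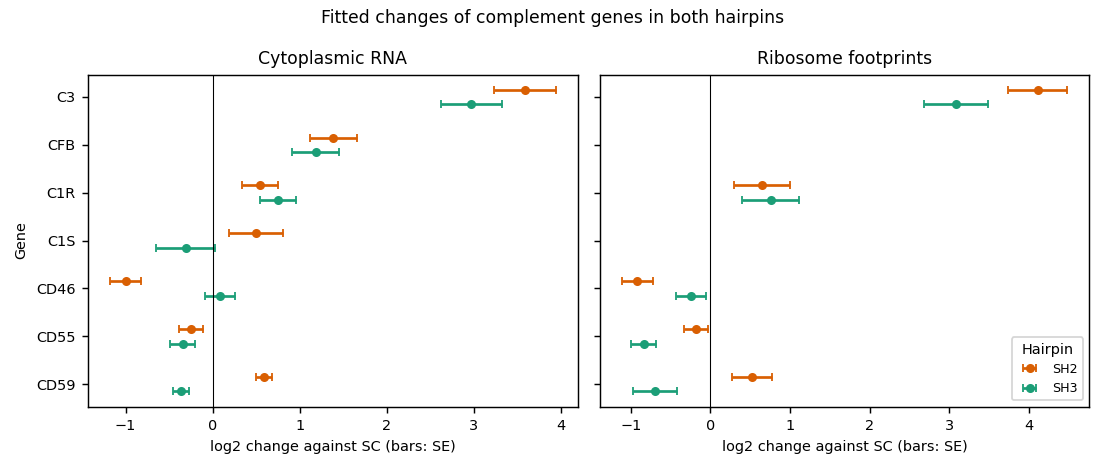
Fitted log2 changes against SC in RNA (left) and footprints (right), with SE, for SH2 (orange) and SH3 (green). SERPING1 is left out because its hairpin libraries are near 0 counts, and CFB and C1S have too few footprints to test. C3 lay at 3.59 and 2.97 in RNA and CFB at 1.39 and 1.18, while CD46 and CD59 separated the hairpins.

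Counts over the 7 genes other than C3 have to be read against the many genes called in these libraries. In RNA of SH2, 3 of 7 were called higher (CFB, C1R and CD59) and 2 lower (CD46 and SERPING1), where 31.1% of all genes tested were called higher and 30.4% lower. In RNA of SH3, 2 of 7 were higher (CFB and C1R) and 2 lower (CD59 and SERPING1), against 27.8% and 25.2% of all genes. The median log2 RNA change of the 7 genes was 0.50 in SH2 and -0.31 in SH3, beside 0.012 and 0.034 over all genes tested. Both hairpins called CFB and C1R higher and SERPING1 lower, where 19.6% of all genes were called higher in both and 18.2% lower in both. SERPING1 is listed in these tallies although it entered the test only through SC, where it was higher, so its lower call supports nothing here. The hairpins share their SC libraries.

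Between the hairpins, CD59 was called higher in SH2 RNA and CD46 lower, against 18.9% and 20.4% of all genes. In footprints 4 of the 7 genes were tested. SH2 gave 0 called higher, also at an unadjusted p under 0.05 and with DESeq2, and 1 lower (CD46), where 21.0% of all genes were higher and 23.2% lower. With the replicate block SH2 gave 2 calls, CD59 higher and CD46 lower. SH3 gave 0 higher, also at an unadjusted p under 0.05 and with DESeq2, and 1 lower (CD55), against 16.9% and 19.0%. Between the hairpins, CD55 and CD59 were called higher in SH2 footprints and CD46 lower, against 12.1% and 11.6%.

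Libraries did not overlap with SC for 6 of the 8 genes in RNA of SH2 and 6 in SH3. Of all genes, 64.3% and 62.9% did not overlap. Both RNA counts include C3, chosen for its rise, and SERPING1, which entered the test only through SC. These genes are no support for a difference from SC here. The others were CFB, C1R, CD46 and CD59 in SH2, and CFB, C1R, CD55 and CD59 in SH3. In footprints, libraries did not overlap with SC for 2 of 5 genes in SH2 and 3 of 5 in SH3, C3 included. Of all genes, 51.3% and 46.5% did not overlap. Translational efficiency was called for 0 of the 4 genes with footprint tests in any comparison, both by edgeR and by DESeq2. At an unadjusted p under 0.05 only CD55 counted, in SH3 against SC and between the hairpins. Of all genes, 3.90% were called in translational efficiency in SH2, 0.686% in SH3 and 0.0160% between the hairpins. The shares of the 7 genes are thus near those of all genes in most of these comparisons.

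Across the 9 RNA libraries, the Pearson correlation of log2 CPM with C3 was 0.934 for CFB, 0.802 for C1R, 0.372 for C1S and 0.347 for CD59. It was -0.458 for CD46, -0.580 for CD55 and -0.868 for SERPING1. CFB held rank 335 and C1R rank 2025 of 12709 genes. The 5 genes with the highest correlation were SEC24C (0.989), CALCOCO1 (0.986), TNKS1BP1 (0.986), TNFRSF9 (0.985) and MMP15 (0.983). TNFRSF9, the costimulatory receptor 4-1BB, went from 0.446 ± 0.114 CPM for SC to 2.81 ± 0.573 for SH2 and 1.87 ± 0.637 for SH3 (SD, n = 3 per group). These correlations are descriptions over 9 libraries that share the 3 treatments, and genes moved by both hairpins will score high.

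The wider complement system was examined in 5 lists of 50 genes, of which 40 were in the table and only 12 had enough RNA to test. Each hairpin called 4 of the 12 higher and 2 lower. Among all genes 31.1% were higher and 30.4% lower in SH2, and 27.8% and 25.2% in SH3. Over the alternatives SH2 gave 4 to 6 higher calls and 1 to 3 lower, and SH3 gave 3 to 6 higher. Only COLEC10 of the classical and lectin pathway genes and only C5 of the terminal pathway genes were tested, and C2 and C4A had at most 4 and 7 counts in a library. COLEC10, a collectin of the lectin pathway, was called lower in SH2 RNA (0.420 ± 0.188 CPM in SC, 0.0481 ± 0.0541 in SH2, edgeR adjusted p 0.00186, on very few counts). It passed the filter on low counts through SC and SH3, where it was higher, so the call is no support for a difference. C5, which the C5 convertase cuts to start the terminal pathway, rose in SH3 RNA by 0.79 (edgeR adjusted p 0.0103).

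In the alternative pathway, CFD (factor D, which cuts factor B) fell in SH3 RNA (log2 -0.75, edgeR adjusted p 0.0123) and stood at 0.37 in SH2 (adjusted p 0.142). CFP (properdin, which stabilises the convertase) was called higher in SH2 RNA (log2 1.52, edgeR adjusted p 0.00757), on 24 counts summed over SC and 75 over SH2. It passed the filter on low counts mainly through SH2, where it was high, so the call is no support for a difference. CFP stood at 0.52 in SH3 (adjusted p 0.385). Of the receptors, C3AR1, the receptor for C3a, and ITGB2, the beta chain of complement receptors 3 and 4, passed in neither hairpin.

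Of 6 other complement regulators tested in RNA, 3 rose and 1 fell in both hairpins. Among all genes tested, 19.6% were called higher in both and 18.2% lower in both. CLU (clusterin), which binds terminal complement complexes, went from 14.1 ± 1.92 CPM for SC RNA to 76.6 ± 9.24 for SH2 and 52.2 ± 5.34 for SH3 (SD, n = 3 per group). The log2 rise of CLU was 2.45 and 1.89 in RNA, and 2.40 and 1.91 in footprints.

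THBD (thrombomodulin), which promotes factor I action, rose in RNA by 1.62 in SH2 and 0.36 in SH3, and in footprints rose in SH2 alone by the test against SC (1.58, with 0.11 in SH3); the hairpins differed by 1.48 (edgeR adjusted p 3.88e-05). C4BPB, the beta chain of C4b-binding protein, fell in RNA from 38.3 ± 2.79 CPM for SC to 19.2 ± 3.46 for SH2 and 16.7 ± 1.26 for SH3 (SD, n = 3), and in footprints by 1.34 and 1.53 on the log2 scale. C1QBP, a mitochondrial protein that also binds C1q, had the highest mean RNA CPM of the tested genes in these 5 complement lists, at 374 ± 36.2 in SC (SD, n = 3), and passed the RNA test in neither hairpin. Its footprints fell by 0.50 for SH2 (edgeR adjusted p 0.00776) and by 0.51 for SH3 (edgeR adjusted p 0.00832).

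Of 20 acute phase proteins, 4 had enough RNA to test. SERPINA1 (alpha-1-antitrypsin) rose in both hairpins, in RNA by 2.06 for SH2 (edgeR adjusted p 2.03e-05) and by 1.45 for SH3 (edgeR adjusted p 0.000610), and by 2.31 and 1.75 in footprints. PTX3, a pentraxin that binds C1q, rose by 0.49 in SH2 RNA (edgeR adjusted p 0.0417) and fell by 1.14 in SH3 RNA (edgeR adjusted p 0.000348). SAA1, serum amyloid A, rose by 1.39 in SH2 RNA (edgeR adjusted p 0.0378) with a wide spread of 5.48 ± 4.96 CPM (SD, n = 3), and stood at -0.72 in SH3 (adjusted p 0.341).

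Most tested genes of acute phase signalling were higher in SH2 RNA. The list of 23 genes holds cytokines, receptors and transcription factors of the acute phase response, and the feedback inhibitors SOCS3, NFKBIA and TNFAIP3. Of 21 tested in RNA, SH2 called 17 higher and 0 lower, SH3 called 12 higher and 1 lower (IL1B), and 11 were higher in both hairpins. Among all genes, 31.1% were higher in SH2, 27.8% in SH3 and 19.6% in both. All 3 inhibitors were called higher in SH2, and TNFAIP3 also in SH3. The median log2 RNA change was 0.71 in SH2 and 0.54 in SH3. RELB and NFKB2, the subunits of the noncanonical NF-kappaB dimer, rose by 1.74 and 1.25 in SH2 and by 1.92 and 1.16 in SH3. IRF1, an interferon regulatory factor, rose by 1.70 and 1.26. CEBPB, a C/EBP factor of the acute phase response, rose in RNA by 0.92 and 0.57, while its footprints stood at -0.15 (adjusted p 0.557) and 0.21 (adjusted p 0.439).

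The genes of this list with the highest RNA CPM were IL6ST, the signalling chain of interleukin-6 family receptors, STAT3 and NFKB2. IL6ST rose by 0.69 in SH2 and 0.90 in SH3, and STAT3 by 0.54 and 0.74. IL1B was the exception: its RNA went from 15.0 ± 3.96 CPM for SC to 39.6 ± 9.91 for SH2 and 5.09 ± 2.25 for SH3 (SD, n = 3 per group), a rise of 1.41 in SH2 and a fall of 1.55 in SH3. The hairpins differed in IL1B RNA by 2.96 (edgeR adjusted p 3.80e-06). In footprints of 19 listed genes tested, SH2 called 14 higher and 1 lower, and SH3 called 6 higher and 1 lower, where 21.0% and 16.9% of all genes were higher. Any part of these factors in the C3 and CFB rise was not tested.

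**Figure D4:**
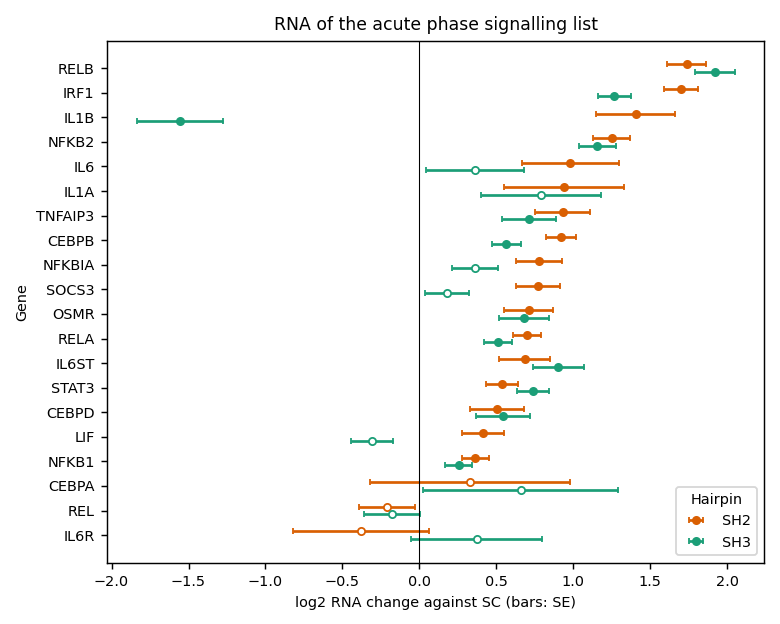
Log2 RNA changes against SC, with SE, of 20 of the 21 tested genes of the acute phase signalling list, ordered by the SH2 change. Orange is SH2 and green SH3, and filled points were called by edgeR (adjusted p under 0.05). RELB, IRF1 and NFKB2 lay to the right of 0 in both hairpins, and IL1B lay at 1.41 in SH2 and -1.55 in SH3.

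C3 is made as a single chain that furin-like proteases cut, and cathepsin L can cut C3 inside cells. Of 4 such proteases tested, CTSL, PCSK7 and FURIN rose in RNA in both hairpins, by 0.69, 0.73 and 0.54 in SH2 and by 0.94, 0.60 and 0.59 in SH3. Among all genes tested in RNA, 19.6% were called higher in both. In footprints 0 of 4 passed in SH2, and CTSL was the 1 that passed in SH3 (0.84, edgeR adjusted p 0.00286). Of all genes tested in footprints, 21.0% were called higher and 23.2% lower in SH2, and 16.9% and 19.0% in SH3. FURIN footprints stood at -0.03 in SH2 and -0.10 in SH3.

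The enzymes that make and attach GPI anchors, on which CD55 and CD59 depend, had calls in both directions at shares near those of all genes in RNA. Of 25 tested in RNA, SH2 called 10 higher and 6 lower, and SH3 called 8 higher and 7 lower, against 31.1% and 30.4% of all genes in SH2 and 27.8% and 25.2% in SH3. PIGQ, PIGN and PGAP3 rose in both hairpins, by 1.01, 0.73 and 0.56 in SH2 and by 0.60, 0.57 and 0.55 in SH3. PIGW, PGAP1 and PIGX fell in both, by 1.08, 0.78 and 1.18 in SH2 and by 0.50, 0.76 and 0.35 in SH3. PIGT, GPAA1 and PIGS, subunits of the transamidase that attaches the anchor, had the highest RNA CPM. In SH3 GPAA1 fell in RNA by 0.29 (edgeR adjusted p 0.0190) and in footprints by 0.71 (edgeR adjusted p 0.00516). In footprints of 24 tested, SH2 called 7 higher and 1 lower, and SH3 called 1 higher and 5 lower, against 21.0% and 23.2% of all genes in SH2 and 16.9% and 19.0% in SH3. SH2 against SH3 called 11 higher and 0 lower in footprints, against 12.1% and 11.6% of all genes. In RNA that contrast called 4 higher and 6 lower, against 18.9% and 20.4%. Any link to the CD55 and CD59 footprints was not tested.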

How the data were processed

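The members, gene lists and motifs were chosen with earlier results of these data known. A single deposited table was used, with genes by symbol. Its count columns are raw whole-number read counts deposited by the authors, and its normalized signal columns are the authors' DESeq2-normalized values, per the file headers (not used in the tests). Its log2 fold changes and p-values come from the authors' DESeq2 runs against SC, per the file headers. The submitters' processing notes name Bowtie 1.2.2 and DESeq2. Genome build, annotation, counting tool and the treatment of reads matching several places are not given in the sources used here. The authors' columns named RD are identical for both hairpins in all 17017 genes and were not used.

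Counts were tested with edgeR 4.0.16 (R 4.3.3): filterByExpr (minimum count 10), TMM scaling, quasi-likelihood test, two-sided, Benjamini-Hochberg adjustment over all genes. A call is an adjusted p under 0.05. RNA and footprints were each fitted over 9 libraries, and translational efficiency as an interaction over all 18. Genes are read for efficiency only where the footprint fit also tested them. SE is the log2 change divided by the square root of F, and intervals are 95%. A group with 3 counts or fewer in every library is at the floor. Correlations used log2 CPM with a prior count of 3. The tests were checked on simulated counts. All replicate pairs differed by more than counting noise.

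All 8 genes are named, as is FBL. From each wider list the text names up to 3 genes with the largest mean RNA change called the same way in both hairpins, in each direction, and the 3 with the highest mean RNA CPM. The 5 genes closest to C3 are also named. Other list genes (CFD, CFP, C5, COLEC10, C2, C4A, PTX3, SAA1, C3AR1, ITGB2, CEBPB, IL1B, LYZ, SOCS3, NFKBIA, TNFAIP3 and, in the closing section, IL6 and LIF) were named after their values were seen where the rule did not already take them. Alternatives were DESeq2 1.42.0, other scalings, no filter, fits of only the groups compared, a replicate block, thinned footprint libraries and leaving out each replicate. Same-numbered SH2 and SC replicates deviated together in every pair (correlations of deviations from group means 0.295 to 0.358 in RNA and 0.249 to 0.297 in footprints), a pairing taken from the data. Those of SH3 did not in every pair (-0.083 to 0.230 in RNA and -0.059 to 0.258 in footprints with SC). Such correlations between RNA and footprint libraries of the same treatment and number ran from -0.490 to 0.503. Ratios of footprints to RNA within a replicate are therefore descriptions only. Block fits used all 9 libraries of a kind. Results of some genes are not reported here.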

Additional observations from a re-analysis of the deposited data

Results flagged for a closer look

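A direct test between the hairpins, on the log2 scale with SH2 minus SH3, passed for 4 of the 8 genes in RNA, footprints or both. Among all genes tested, SH2 was called higher for 18.9% and lower for 20.4% in RNA. In footprints these shares were 12.1% and 11.6%. C3 footprints differed by 1.02. CD46 differed by -1.09 in RNA and by -0.68 in footprints. CD55 footprints differed by 0.66. CD59 differed by 0.96 in RNA and by 1.22 in footprints. For CD46, SH2 lay below both SC and SH3, whereas for CD59 SC lay between the hairpins in RNA. FBL RNA did not differ between the hairpins past the threshold (0.72, edgeR adjusted p 0.242). The labels do not tell which hairpin sequence SH2 or SH3 carried, and effects of a hairpin on other transcripts were not tested.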

How the results depend on the processing

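The number of the 7 genes called in RNA stayed within 1.5 times its main value in each comparison under each alternative, with 4 to 6 called in SH2, 4 to 5 in SH3 and 2 to 3 between the hairpins when a replicate was left out. In footprints the counts were small. Without a filter on low counts, 3 genes were called in SH2 (CD46, CD59 and CFB) and 2 in SH3 (CD55 and CD59), where the main fits called 1 each. The CFB call rests on 10 counts in SH2 against 1 in SC, so it is no support for a rise. Leaving out a replicate gave 1 to 2 in SH2, 1 to 2 in SH3 and 2 to 3 between the hairpins, where leaving out SC replicate 1 raised the SH2 count and leaving out SC replicate 1, SC replicate 2 or SH3 replicate 1 raised the SH3 count to 2. The added calls were of CD59 and CD46 in the fits without a replicate. Efficiency calls stayed at 0. For the acute phase signalling list, a check added after seeing the data, 13 to 17 were called higher in SH2 and 10 to 14 in SH3. For the wider complement lists, checked in the same way, SH2 gave 4 to 6 higher and 1 to 3 lower, and SH3 gave 3 to 6 higher and 2 lower.

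With a replicate block, 2 members were called in SH2 footprints and 2 in SH3 footprints, with CD59 added in each. The block also brought CD55 RNA in SH2 (adjusted p 0.0305) and SH3 (0.00922), C1S RNA between the hairpins (0.0453) and C3 RNA between the hairpins (0.00303) past the threshold, and turned C1R efficiency in SH3 to -0.0045. It changed no other call of the 8 genes. Numbers of SH3 replicates were not shown to pair with those of SC or SH2, so for these the block result is given as a hint only.

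Efficiency values near 0 changed sign, none past the threshold. With plain library totals CD46 in SH2 was -0.0038 and CD55 in SH2 -0.0094. With thinned footprint libraries CD59 was 0.11 in SH2 and 0.038 in SH3, C3 in SH3 was -0.062 and C1R between the hairpins -0.014. Over single left-out replicates the log2 values ran, for efficiency in SH2, from -0.18 to 0.36 for C1R, from -0.36 to 0.32 for CD46, from -0.13 to 0.29 for CD55, from -0.27 to 0.29 for CD59; for efficiency in SH3, from -0.10 to 0.34 for C3, from -0.26 to 0.30 for C1R, from -0.52 to 0.0401 for CD59; and between the hairpins for C1R efficiency from -0.21 to 0.36. Those of CD46 RNA in SH3 ran from -0.052 to 0.32, of CD55 RNA between the hairpins from -0.056 to 0.26 and of C1R footprints between the hairpins from -0.39 to 0.13. The cause was not tested. Depth limits CFB, C1S and SERPING1 in footprints.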

Other observations

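Among the cytokines of the interleukin-6 family, IL6 RNA rose by 0.98 in SH2 (SE 0.32, edgeR adjusted p 0.0150) and stood at 0.36 in SH3 (SE 0.32, edgeR adjusted p 0.358), and LIF RNA rose by 0.41 in SH2 (edgeR adjusted p 0.0155) and stood at -0.31 in SH3 (edgeR adjusted p 0.0695). The hairpins differed in LIF RNA by 0.72 (edgeR adjusted p 0.000910) and did not differ past the threshold in IL6 RNA (0.62, edgeR adjusted p 0.130).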
